A study of Homo sapiens with 9 samples.

Results

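The 41 genes described here act in homologous recombination, in the Fanconi anemia pathway of interstrand crosslink repair and in the checkpoint that reports stalled replication forks. They were given as a list of names, with no threshold on a measured value but drawn up with earlier results of these data known, and all 41 were found among the 26485 genes of the deposited tables (MRE11 under its older symbol MRE11A). RNA was sequenced from MDA-MB-231, a cell line grown from a human breast cancer of the triple-negative type, that stably expressed 1 of 3 short hairpin RNAs (shRNAs). The NS shRNA was a nonspecific control, and ASAH1 shRNA #1 and ASAH1 shRNA #2 were 2 independent hairpins against ASAH1, the lysosomal acid ceramidase that breaks ceramide down to sphingosine. Each group had 3 libraries, all groups carried a hairpin, all came from 1 cell line, and there was 1 control hairpin. The submitters called the 3 libraries biological replicates and did not say how they were derived, so the p-values below measure the spread between these libraries.

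Homologous recombination repairs a broken chromosome from the sister chromatid. The ends are cut back to single strands, BRCA1, PALB2 and BRCA2 prepare them for strand exchange, RAD51C, XRCC2, XRCC3 and the RAD54 proteins carry that exchange forward, and helicases with a topoisomerase take the joined molecules apart. Crosslinks between the strands of DNA are recognised by FANCM, the Fanconi core complex with its ubiquitin-conjugating enzyme UBE2T then marks the FANCD2-FANCI clamp, and ATR with TOPBP1, Claspin (CLSPN) and CHEK1 holds the cell cycle while forks are repaired; many of these genes are transcribed mostly in S phase.

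ASAH1 itself was read first, as a check of the labels. Its normalized counts were 4634, 4725 and 4723 in the NS shRNA libraries, 1327, 1427 and 1408 with ASAH1 shRNA #1 and 752.1, 781.5 and 736.7 with ASAH1 shRNA #2, with no overlap between groups. Counts of single libraries are given on 1 scale for all 9 libraries, and fold changes against NS shRNA come from the deposited table of each hairpin, as log2 of the normalized count plus 1. ASAH1 fell by 1.76 on the log2 scale with the first hairpin (SE 0.050, limma adjusted p = 9.49e-09) and by 2.63 with the second (SE 0.057, adjusted p = 5.42e-10), and it was lower with the second hairpin than with the first by 0.89 (log2 ratio -0.89, SE 0.051, edgeR adjusted p = 6.98e-08). The libraries held 23806003 to 49659106 reads on genes. Between 189 and 7498 of these fell on any 1 of the 41 genes in any 1 library, and every gene passed the filter on low counts in all 3 comparisons. The markers of the line, VIM, CD44, CAV1, AXL and ANXA1, were abundant in all 9 libraries, ESR1, PGR and FOXA1 had at most 6 reads in any library, and the luminal and epithelial genes GATA3 and EPCAM were present, with 401 reads or more in each library. Of 5 markers of other cells, the immune genes PTPRC and CD3E had at most 8 reads, while the endothelial gene PECAM1 had 39 to 102 and the fibroblast collagen COL1A1 had 545 to 965. A further collagen, COL3A1, had 48 to 58 reads with NS shRNA, 6 to 16 with ASAH1 shRNA #1 and 41 to 47 with ASAH1 shRNA #2, and its part in the results was not tested.

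Per length of transcript, the genes spanned a wide range of levels. The level here is reads per kilobase of the reference (MANE Select) transcript, scaled to the library's total (RPKM), and it allows genes to be ranked against each other. In the NS shRNA libraries UBE2T was the most abundant, at 59.7 ± 1.2 (SD, n = 3), and RBBP8 followed at 28.0 ± 0.95. CHEK1, FANCI and FANCG lay close together, at 23.1 ± 1.0, 22.6 ± 0.24 and 22.2 ± 1.6, and did not differ beyond their spread. BRCA2 (1.75 ± 0.27), WRN (2.19 ± 0.20) and FANCM (2.26 ± 0.16) were the lowest. XRCC3, at 17.2 ± 1.0 in the control, stood at 26.0 with ASAH1 shRNA #1 and 39.9 with ASAH1 shRNA #2, where it ranked behind UBE2T alone.

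**Figure D1:**
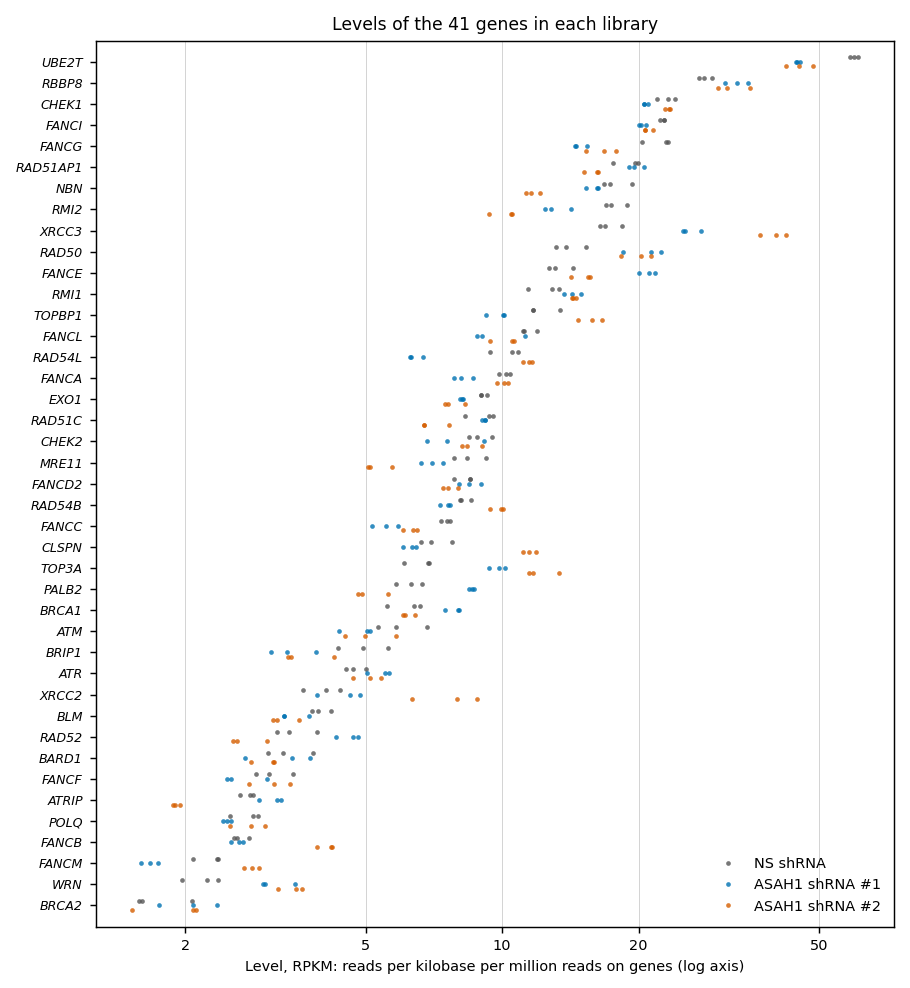
Level of each of the 41 genes in each library, in RPKM on a log axis, ordered by the NS shRNA mean; each point is 1 library. UBE2T is at the top at about 59.7 and BRCA2 at the bottom at 1.75 in the control, and XRCC3 moves from 17.2 to 39.9 with ASAH1 shRNA #2. Libraries are scaled by their total here, not by size factors, so small shifts between groups are not to be read from this plot.

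The promoters of 5 genes are printed to show 1 or 2 genes of each pattern below: CLSPN and FANCM, which were called in opposite directions with the hairpins (the fall of CLSPN ended in several alternatives), XRCC3 and TOP3A, which rose with both, and UBE2T, which fell with both. The sequences are those of RefSeq (GRCh38.p14), given 5′ to 3′ on the strand of the gene and ending just before its start or before the first annotated exon upstream of it. Capitals mark a CCAAT box (CCAAT, or ATTGG where it lies on the other strand) or a cell-cycle homology element (TTTGAA or TTCGAA, either strand). CLSPN is chr1:35769979-35770228, minus strand; FANCM is chr14:45135680-45135929, plus strand; XRCC3 is chr14:103715505-103715701, minus strand; TOP3A is chr17:18315008-18315244, minus strand; UBE2T is chr1:202341985-202342186, minus strand.
CLSPN: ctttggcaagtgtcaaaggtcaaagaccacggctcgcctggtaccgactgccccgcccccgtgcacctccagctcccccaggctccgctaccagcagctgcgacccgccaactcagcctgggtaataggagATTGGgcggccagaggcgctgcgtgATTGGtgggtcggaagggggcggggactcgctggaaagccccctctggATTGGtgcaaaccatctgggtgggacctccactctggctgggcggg
FANCM: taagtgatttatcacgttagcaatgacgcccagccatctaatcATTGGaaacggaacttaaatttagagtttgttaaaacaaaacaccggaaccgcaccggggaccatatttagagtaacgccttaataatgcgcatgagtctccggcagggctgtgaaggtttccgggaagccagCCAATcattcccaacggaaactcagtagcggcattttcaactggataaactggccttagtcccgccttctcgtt
XRCC3: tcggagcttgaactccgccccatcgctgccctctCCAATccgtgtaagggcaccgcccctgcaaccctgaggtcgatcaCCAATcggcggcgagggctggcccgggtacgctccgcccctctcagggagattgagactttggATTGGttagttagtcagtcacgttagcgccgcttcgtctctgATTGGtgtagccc
TOP3A: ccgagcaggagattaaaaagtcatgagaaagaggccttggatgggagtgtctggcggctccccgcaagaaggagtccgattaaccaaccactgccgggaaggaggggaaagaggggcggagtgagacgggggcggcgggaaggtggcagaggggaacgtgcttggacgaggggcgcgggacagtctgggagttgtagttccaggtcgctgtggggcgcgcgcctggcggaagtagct
UBE2T: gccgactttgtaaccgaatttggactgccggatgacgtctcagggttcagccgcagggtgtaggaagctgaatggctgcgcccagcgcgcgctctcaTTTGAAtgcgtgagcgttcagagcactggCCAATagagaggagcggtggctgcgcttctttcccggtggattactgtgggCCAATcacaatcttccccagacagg

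Over the full 250 bases before the start, CLSPN held 3 CCAAT boxes, FANCM 2, UBE2T 2 and XRCC3 5, while TOP3A held none of these letters. RefSeq windows were at hand for 36 of the 41 genes, all but NBN, RAD54B, WRN, RMI2 and FANCI. A CCAAT box was in 17 of the 36 (47.2%), against 32.0% of all 34786 promoter windows of the same length, and a GC box (GGGCGG, either strand) in 25 (69.4%), against 42.6%. Each of the 36 genes had 1 window, the one nearest the start of its reference transcript. The 34786 are all distinct RefSeq windows, not 1 chosen per gene, so the shares are of sets chosen differently. An E2F site (TTTCGCGC, TTTGGCGC, TTTCCCGC or TTTGCCGC, either strand) was in 3 (8.33%), those of FANCA, FANCC and RMI1, against 2.78%. The cell-cycle homology element was in 5 (13.9%), those of ATM, BRIP1, FANCC, POLQ and UBE2T, against 14.4%. Of the 5 windows of genes that were lower with ASAH1 shRNA #1 and higher with ASAH1 shRNA #2, 4 held a CCAAT box. Of the 4 of genes lower with both, 3 did, and of the 7 of genes higher with both, 1 did. Of the other 20 windows, 9 did. A GC box was in 4 of the 5, 4 of the 4, 5 of the 7 and 12 of the other 20. These groups are small, and the split of motifs between them was not tested. The window of CHEK1, which held a CCAAT box, belongs to a start 1061 bases from that of the reference (MANE Select) transcript. Calls that form these groups, such as those of CLSPN and CHEK1, ended in some alternatives. All these matches are descriptions of letters, not of bound sites.

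With ASAH1 shRNA #1, 11 of the 41 genes were higher and 19 lower than with NS shRNA, and 11 did not pass the test (limma, adjusted p below 0.05 over all genes tested). Of all 14341 genes tested, 66.1% passed, 32.8% higher and 33.3% lower. With ASAH1 shRNA #2, 16 were higher, 8 lower and 17 did not pass, where 66.9% of 14250 genes passed, 33.5% higher and 33.4% lower. The median log2 fold change of the 41 genes was -0.17 with the first hairpin and 0.12 with the second, beside 0.0013 and 0.013 over all genes tested. Among the called genes, 3 of the 41 passed 1.5-fold with ASAH1 shRNA #1 (RAD54L, FANCE and FANCG) and 8 with ASAH1 shRNA #2 (RAD50, XRCC2, XRCC3, WRN, TOP3A, RMI2, FANCB and CLSPN), beside 28.9% and 32.5% of all genes tested. The comparisons share the NS shRNA libraries, so a library that is high or low there moves both. The libraries of the hairpin and of the control did not overlap for 30 of the 41 genes with ASAH1 shRNA #1 and for 25 with ASAH1 shRNA #2, beside 69.2% and 69.9% of all genes tested.

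Set side by side, 8 genes were higher with both hairpins (RAD50, RBBP8, XRCC3, WRN, TOP3A, RMI1, FANCE and ATR) and 6 lower with both (BRIP1, MRE11, NBN, RMI2, FANCG and UBE2T), beside 20.0% and 20.5% of the 14075 genes tested in both. A further 6 were lower with the first hairpin and higher with the second (RAD54L, RAD54B, FANCM, TOPBP1, CLSPN and CHEK1), a pattern that 4.16% of genes had. Of these 6, only FANCM and TOPBP1 kept both calls in every alternative run. Among the genes called alike with both hairpins, RMI1, FANCE, ATR, BRIP1, NBN and FANCG also lost at least 1 call in some alternative. None of the 41 genes was higher with the first hairpin and lower with the second, as 3.80% of genes were. BRCA1, PALB2 and RAD52 were called higher and EXO1, BLM, FANCA, FANCC, FANCL, FANCI and ATM lower with ASAH1 shRNA #1 alone, and XRCC2 and FANCB were called higher and RAD51C and ATRIP lower with ASAH1 shRNA #2 alone. These 10 and 4 genes stand beside 17.8% and 18.7% of genes called with 1 hairpin alone. The other 7 passed in neither comparison, namely BARD1, BRCA2, RAD51AP1, FANCF, FANCD2, CHEK2 and POLQ; across all genes 15.0% passed in neither.

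Other readings belong beside these counts. Libraries were scaled by size factors, which set the typical gene to no change; scaled by total reads on genes instead, an alternative chosen after seeing the data, the median of all genes tested moved to -0.12 with ASAH1 shRNA #2 and the 41 genes split into 12 higher and 14 lower, while with ASAH1 shRNA #1 they split into 11 higher and 16 lower and the median of all genes was 0.019. Calls that ended under this scaling were those of RAD54L, FANCE, ATR and CHEK1 with ASAH1 shRNA #2 (adjusted p of 0.0514 to 0.907) and of NBN, RAD54B and FANCL with ASAH1 shRNA #1 (adjusted p of 0.0515 to 0.0773), so that 3 of the 6 genes with opposite calls lost 1 of them. With ASAH1 shRNA #2, RBBP8 (0.20), RAD54B (0.25), RMI1 (0.20), RAD51C (-0.37) and UBE2T (-0.40) moved by over 1.5 times and still passed. Genes of S phase and G2/M also moved. Of a list of 30, 22 were lower and 4 higher with ASAH1 shRNA #1 (median log2 fold change -0.40). With ASAH1 shRNA #2, 16 were lower and 3 higher (median -0.23). Over all genes tested, 33.3% were lower and 32.8% higher with the first hairpin. With the second, 33.4% were lower and 33.5% higher. The summed normalized count of the 30 genes was 196539 to 198373 in the NS shRNA libraries. It was 159078 to 161173 with ASAH1 shRNA #1 and 171590 to 175075 with ASAH1 shRNA #2. The list and its sum pool the phases, and its genes differed, named here after their values were seen. With ASAH1 shRNA #2, MCM2, MCM4, MCM7, RRM2 and GMNN did not pass (-0.048 to 0.010). The 16 lower genes included MKI67 (-1.19), CCNB2 (-0.91) and MCM5 (-0.83). The 3 higher were MCM3 (0.70), CDC6 (0.90) and CDC20 (0.49). The part of these S phase and G2/M changes in those of the repair genes was not tested. In bulk RNA, fewer cells in a phase and less RNA per cell cannot be told apart.

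**Figure D2:**
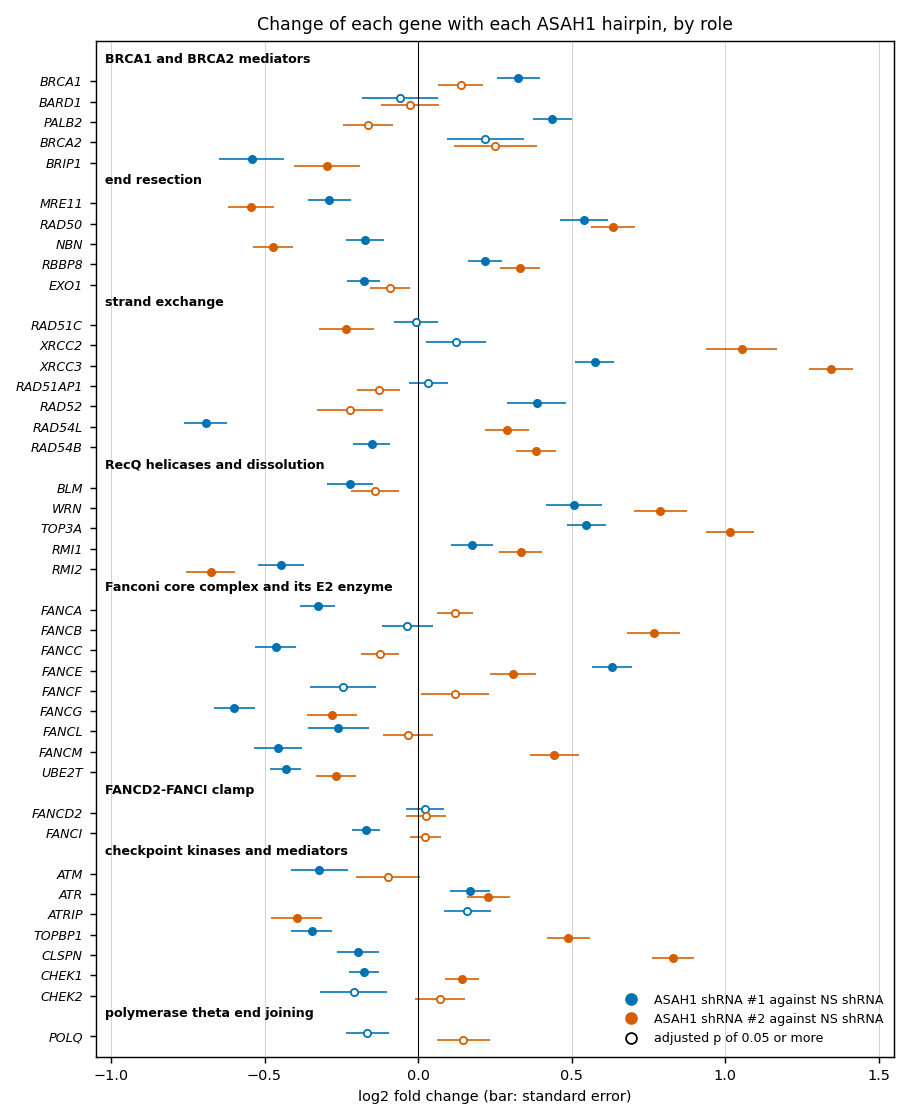
Log2 fold change of each of the 41 genes with ASAH1 shRNA #1 (blue) and ASAH1 shRNA #2 (orange) against NS shRNA, grouped by role; bars are standard errors from limma (3 libraries a group) and open points did not pass an adjusted p of 0.05. XRCC3 reaches 1.34 and TOP3A 1.01 with ASAH1 shRNA #2, and RAD54L lies at -0.69 with the first hairpin and 0.29 with the second.

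Of BRCA1, BRCA2 and their 3 partners, 2 were higher and 1 lower with ASAH1 shRNA #1, and 1 was lower with ASAH1 shRNA #2. Over all genes tested, 32.8% were higher and 33.3% lower with the first hairpin, and 33.5% and 33.4% with the second. BRCA1, the ubiquitin ligase that with BARD1 prepares ends and brings in PALB2, had normalized counts of 1341, 1529 and 1572 with NS shRNA, 1890.4, 1902 and 1768 with ASAH1 shRNA #1 and 1603, 1681 and 1593 with ASAH1 shRNA #2, so that every library of either hairpin lay above the control. It rose by 0.33 on the log2 scale with ASAH1 shRNA #1 (SE 0.070, adjusted p = 0.00240), and the difference with ASAH1 shRNA #2 was 0.14 (SE 0.073, adjusted p = 0.116). BRCA2, the mediator that PALB2 brings to the cut ends, overlapped between groups, with 640.6, 648.4 and 831.1 in the control, 936.8, 829.0 and 700.3 with the first hairpin and 922.6, 929.3 and 679.0 with the second. Its log2 fold changes were 0.22 (95% interval -0.065 to 0.50) and 0.25 (-0.050 to 0.55), neither past the test. BRIP1, the FANCJ helicase that binds BRCA1, was lower in all 3 libraries of ASAH1 shRNA #1, at 1061, 918.8 and 843.8 against 1207, 1368 and 1542, while those of ASAH1 shRNA #2, at 1038, 1284 and 1026, overlapped the control. It fell by 0.54 with the first hairpin (SE 0.10, adjusted p = 0.00134) and by 0.30 with the second (SE 0.11, adjusted p = 0.0308). PALB2, the bridge between BRCA1 and BRCA2, rose by 0.44 with ASAH1 shRNA #1 (adjusted p = 0.000213) and was at -0.16 with ASAH1 shRNA #2, where it did not pass. BARD1 was within its spread in both comparisons. The call of BRIP1 with the second hairpin ended without ASAH1 shRNA #2 replicate 1 or 3 or NS shRNA replicate 2 or 3 (log2 fold changes of -0.29 to -0.21, adjusted p of 0.0780 to 0.116).

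Among the genes that cut back broken ends, RNA of RAD50 rose and RNA of MRE11 and NBN fell, the 3 subunits of the MRN complex. RAD50, its ATPase, had 3689, 3862 and 4269 in the NS shRNA libraries, 6192, 5894 and 5116 with ASAH1 shRNA #1 and 6206, 6494 and 5625 with ASAH1 shRNA #2. MRE11, the nuclease, had 1818, 1936 and 2119.7 in the control and 1689, 1603 and 1512 and 1294, 1439.7 and 1293 with the hairpins. NBN, the subunit that recruits ATM, had 2623, 2709.7 and 3006 in the control, 2499.5, 2519 and 2369 with the first hairpin and 1982, 2068 and 1948 with the second. RAD50 was thus above the control in 6 of 6 hairpin libraries, and MRE11 and NBN below it in 6 of 6. RAD50 rose by 0.54 and 0.63 on the log2 scale (SE 0.079 and 0.072, adjusted p = 0.000227 and 2.25e-05). MRE11 fell by 0.29 and 0.54 (adjusted p = 0.00478 and 9.15e-05), and NBN fell by 0.17 and 0.47 (adjusted p = 0.0312 and 9.36e-05). RBBP8 (CtIP), the cofactor that starts resection with MRN, rose by 0.22 and 0.33. EXO1, the nuclease that extends it, fell by 0.18 with ASAH1 shRNA #1 and was at -0.092 with ASAH1 shRNA #2, not passing. The call of NBN with ASAH1 shRNA #1 ended without any 1 of ASAH1 shRNA #1 replicates 1 to 3 or NS shRNA replicates 2 and 3 (-0.19 to -0.11, adjusted p of 0.0546 to 0.0923), and that of EXO1 without ASAH1 shRNA #1 replicate 1 (-0.17, adjusted p = 0.0546).

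Strand exchange held both the largest rise of the 41 genes and some of the widest gaps between hairpins. XRCC3, which works in a complex with RAD51C, had 1466, 1594 and 1422 with NS shRNA, 2170.4, 2144 and 2358 with ASAH1 shRNA #1 and 3826, 3506 and 4048 with ASAH1 shRNA #2, and the 3 groups formed separate steps. It rose by 0.57 with the first hairpin (SE 0.063, adjusted p = 3.61e-05) and by 1.34 with the second (SE 0.072, adjusted p = 1.38e-07), which is 1.49 and 2.54 times the control. RAD54L, the motor protein that remodels the joint molecule, had 982.8, 1126 and 1091 in the control, fewer with ASAH1 shRNA #1, at 687.5, 643.4 and 646.1, and more with ASAH1 shRNA #2, at 1330.4, 1259 and 1317. No library of any group overlapped another group. RAD54L fell by 0.69 with the first hairpin (SE 0.070, adjusted p = 2.04e-05) and rose by 0.29 with the second (SE 0.072, adjusted p = 0.00445). RAD54B, its paralog, had 846.2, 839.5 and 884.2, 747.8, 787.0 and 779.6 and 1075, 1128 and 1149 in the same order of groups, again without overlap. It fell by 0.15 (SE 0.060, adjusted p = 0.0490) and rose by 0.38 (SE 0.065, adjusted p = 0.000395).

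Among the remaining genes of this step, XRCC2, a relative of XRCC3, rose by 1.05 with ASAH1 shRNA #2 (SE 0.12, adjusted p = 1.74e-05), from 588.2 to 705.6 normalized counts in the control to between 1122 and 1545, and was at 0.12 with ASAH1 shRNA #1, not passing. RAD52, a partner of single-strand annealing, rose by 0.39 with the first hairpin (adjusted p = 0.00542) and was at -0.22 with the second (adjusted p = 0.0901). RAD51C fell by 0.23 with ASAH1 shRNA #2 (adjusted p = 0.0380) and was at -0.0066 with ASAH1 shRNA #1. RAD51AP1, which helps to pair strands, passed with neither. The fall of RAD54B rested on every library: leaving out any 1 of the 6 ended the call (-0.17 to -0.13, adjusted p of 0.0731 to 0.154). That of RAD51C ended without ASAH1 shRNA #2 replicate 1 or 2 or NS shRNA replicate 1 or 2 (-0.21 to -0.19, adjusted p of 0.101 to 0.126), and scaled by total reads RAD54L with ASAH1 shRNA #2 was at 0.16 (adjusted p = 0.0767). RAD54B shares annotated exons on its own strand with FSBP, whose reads cannot be told apart there.

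**Figure D3:**
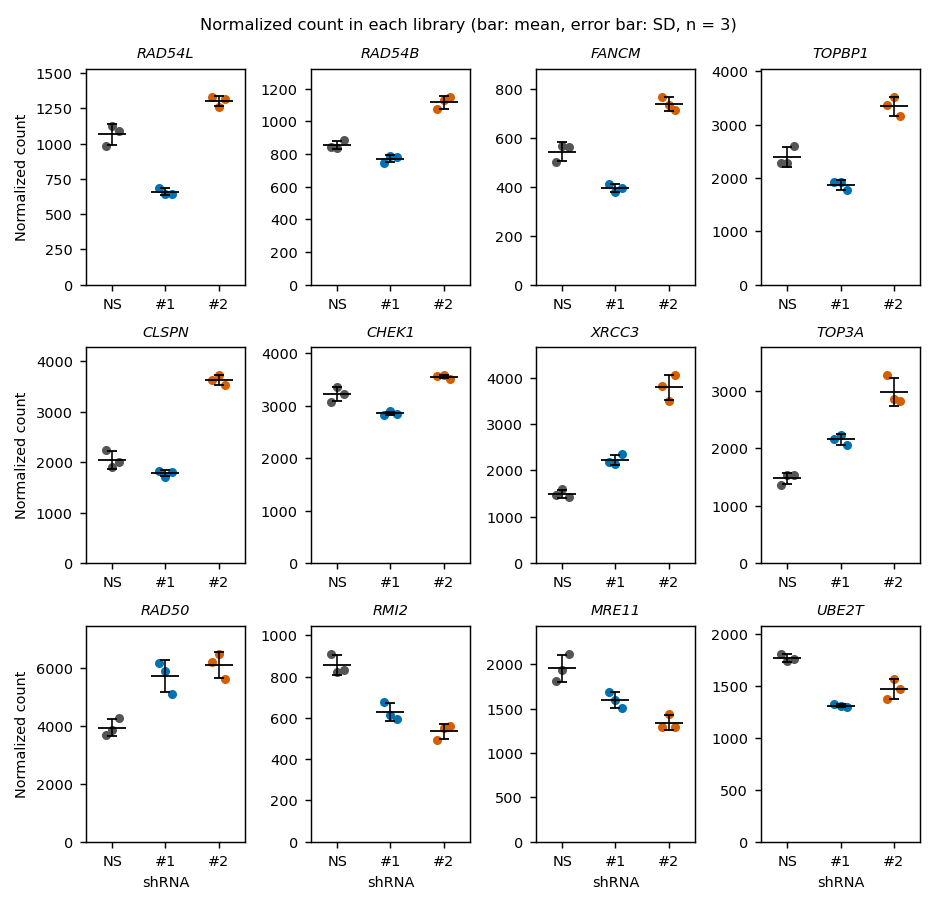
Normalized count of 12 genes in each library, with groups on the x axis (NS shRNA, ASAH1 shRNA #1 and ASAH1 shRNA #2); points are libraries, the wide bar is the mean and the error bar the SD (n = 3). RAD54L, RAD54B, FANCM, TOPBP1, CLSPN and CHEK1 lie below the control with the first hairpin and above it with the second, XRCC3, TOP3A and RAD50 above it with both, and RMI2, MRE11 and UBE2T below it with both.

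Of the 5 genes that take recombination intermediates apart, 3 rose and 1 fell with both hairpins. Among all genes tested in both comparisons, 20.0% rose and 20.5% fell with both. TOP3A, the topoisomerase that dissolves double Holliday junctions with BLM, had 1357, 1529 and 1535 in the NS shRNA libraries, 2162, 2237 and 2057 with ASAH1 shRNA #1 and 3267, 2849 and 2819 with ASAH1 shRNA #2, without overlap. It rose by 0.55 (SE 0.064, adjusted p = 5.45e-05) and 1.01 (SE 0.078, adjusted p = 1.44e-06), or 1.46 and 2.02 times the control. WRN, the RecQ helicase lost in Werner syndrome, had 505.1, 572.3 and 603.3 in the control, 756.2, 883.6 and 751.5 with the first hairpin and 1014, 979.2 and 904.0 with the second, and rose by 0.51 and 0.79 (SE 0.092 and 0.086, adjusted p = 0.000882 and 1.74e-05). RMI2 went the other way, with 910.7, 820.0 and 834.0 in the control, 676.3, 611.4 and 593.0 with ASAH1 shRNA #1 and 494.1, 550.8 and 559.7 with ASAH1 shRNA #2. RMI2, the small subunit that steadies BLM and TOP3A, fell by 0.45 and 0.68 (SE 0.075 and 0.080, adjusted p = 0.000556 and 3.07e-05), and its libraries lay below the control in 6 of 6. The other subunit, RMI1, rose by 0.17 and 0.33. BLM fell by 0.22 with ASAH1 shRNA #1 and was at -0.14 with ASAH1 shRNA #2, not passing. Calls with ASAH1 shRNA #1 ended for RMI1 without ASAH1 shRNA #1 replicate 1 or 2 or NS shRNA replicate 1 (0.11 to 0.17, adjusted p of 0.116 to 0.157), and for BLM without ASAH1 shRNA #1 replicate 2 or 3 or NS shRNA replicate 2 or 3 (-0.23 to -0.19, adjusted p of 0.0575 to 0.0971).

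Of the 9 genes of the Fanconi core complex and its E2 enzyme, 1 was higher and 6 lower with ASAH1 shRNA #1, and 3 were higher and 2 lower with ASAH1 shRNA #2. The shares over all genes tested were 32.8% higher and 33.3% lower with the first hairpin, and 33.5% and 33.4% with the second. FANCM, the motor protein that recognises stalled forks and anchors the complex, had 501.8, 569.3 and 564.7 with NS shRNA, 413.1, 380.5 and 397.3 with ASAH1 shRNA #1 and 768.7, 737.3 and 715.0 with ASAH1 shRNA #2. The groups did not overlap: FANCM fell by 0.46 with the first hairpin (SE 0.079, adjusted p = 0.000675) and rose by 0.44 with the second (SE 0.080, adjusted p = 0.000589). FANCE, the subunit that contacts FANCD2, had 1142, 1248 and 1098 in the control, 1721, 1811 and 1865 with the first hairpin and 1475, 1349 and 1497 with the second. It was the 1 core subunit higher with both, by 0.63 and 0.31 (SE 0.065 and 0.074, adjusted p = 2.18e-05 and 0.00370), and scaled by total reads its value with ASAH1 shRNA #2 was 0.18 (adjusted p = 0.0514).

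FANCG and UBE2T were the 2 of these genes lower with both hairpins. FANCG, a scaffold of the core complex, had 1989.7, 2005 and 1750.0 in the NS shRNA libraries, 1232, 1241 and 1315 with ASAH1 shRNA #1 and 1689, 1441 and 1596 with ASAH1 shRNA #2, and fell by 0.60 and 0.28 (SE 0.067 and 0.081, adjusted p = 3.91e-05 and 0.0102). UBE2T had 1814, 1741 and 1764 in the control, 1329, 1310.2 and 1302 with the first hairpin and 1375, 1568 and 1478 with the second, and fell by 0.43 and 0.27 (SE 0.050 and 0.065, adjusted p = 5.07e-05 and 0.00417). Every hairpin library of both genes lay below the control. FANCA, FANCC and FANCL, the ligase subunit, fell by 0.33, 0.46 and 0.26 with ASAH1 shRNA #1 and did not pass with ASAH1 shRNA #2, at 0.12, -0.12 and -0.033. FANCB, on the X chromosome, rose by 0.77 with ASAH1 shRNA #2 (SE 0.085, adjusted p = 1.9e-05), from 262.4 to 281.5 normalized counts in the control to between 438.1 and 470.2, and was at -0.035 with the first hairpin. FANCF passed with neither. Of the clamp that the complex marks, FANCD2 lay at 0.021 and 0.026, neither passing, and FANCI fell by 0.17 with ASAH1 shRNA #1 (SE 0.044, adjusted p = 0.00710) and was at 0.023 with ASAH1 shRNA #2. The call of FANCL ended without ASAH1 shRNA #1 replicate 1 or 2 or NS shRNA replicate 1 or 2 (-0.27 to -0.19, adjusted p of 0.0757 to 0.140) and that of FANCG with ASAH1 shRNA #2 without NS shRNA replicate 2 (-0.24, adjusted p = 0.0504).

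Among checkpoint genes CLSPN and TOPBP1, which work with ATR, had the widest gaps between the hairpins and were called in opposite directions, while of the kinases at the top ATM was lower with ASAH1 shRNA #1 and ATR higher with both. ATM, the kinase that answers double-strand breaks, had 2323, 2554 and 2962 with NS shRNA, 2168, 2201 and 1886 with ASAH1 shRNA #1 and 2381, 2772 and 2166 with ASAH1 shRNA #2. It fell by 0.32 with the first hairpin (SE 0.092, adjusted p = 0.0119), and the value with the second was -0.099 (95% interval -0.33 to 0.13). ATR, the kinase that answers single-stranded DNA at forks, had 1249.6, 1297 and 1375 in the control, 1501, 1534 and 1374 with ASAH1 shRNA #1, which overlapped it, and 1544, 1625 and 1427 with ASAH1 shRNA #2. ATR rose by 0.17 (SE 0.064, adjusted p = 0.0415) and 0.23 (SE 0.071, adjusted p = 0.0148). Neither call of ATR was firm. With ASAH1 shRNA #1 it ended without ASAH1 shRNA #1 replicate 1 or 2 or NS shRNA replicate 1 or 2 (0.14 to 0.16, adjusted p of 0.106 to 0.162), with ASAH1 shRNA #2 without ASAH1 shRNA #2 replicate 1 or 2 or NS shRNA replicate 1 (0.19 to 0.22, adjusted p of 0.0507 to 0.0553), and scaled by total reads the latter was 0.094 (adjusted p = 0.278). Its partner ATRIP fell by 0.40 with ASAH1 shRNA #2 (SE 0.082, adjusted p = 0.00153) and was at 0.16 with ASAH1 shRNA #1; ATRIP shares exons on its strand with TREX1.

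CLSPN, the adaptor through which ATR activates CHEK1, had 2236, 1903 and 2001 in the NS shRNA libraries, 1830.2, 1715 and 1802 with ASAH1 shRNA #1 and 3627, 3723 and 3534 with ASAH1 shRNA #2. The ASAH1 shRNA #2 libraries stood far above both other groups, and those of ASAH1 shRNA #1 just below the control. CLSPN fell by 0.20 (SE 0.068, adjusted p = 0.0272) and rose by 0.83 (SE 0.068, adjusted p = 2.12e-06), the latter 1.78 times the control. TOPBP1, which switches ATR on, had 2288, 2280.1 and 2601, 1935, 1929 and 1769 and 3365, 3519.6 and 3163 in the same order, without overlap, and fell by 0.35 (SE 0.067, adjusted p = 0.00137) and rose by 0.49 (SE 0.069, adjusted p = 0.000110). CHEK1, the effector kinase, had 3077, 3359 and 3229 in the control, 2829, 2889 and 2835 with the first hairpin and 3566, 3577 and 3514 with the second, a narrow spread in each group. It fell by 0.18 (SE 0.050, adjusted p = 0.0109) and rose by 0.14 (SE 0.056, adjusted p = 0.0421). CHEK2, the effector of ATM, passed with neither, and nor did POLQ, the polymerase of the backup end-joining route, at -0.17 and 0.15. The fall of CLSPN lost its call without ASAH1 shRNA #1 replicate 2 or NS shRNA replicate 1 (-0.17 and -0.13, adjusted p = 0.108 and 0.0874) or with no intensity trend in the fit (adjusted p = 0.0601). That of CHEK1 lost it without NS shRNA replicate 2 (-0.15, adjusted p = 0.0518), and its rise without any 1 of ASAH1 shRNA #2 replicates 1 to 3 or NS shRNA replicates 1 and 3 (0.11 to 0.15, adjusted p of 0.0674 to 0.130) and at 0.0083 when scaled by total reads. CHEK1 shares exons on its strand with STT3A.

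The hairpins were then compared with each other, without the control level, in edgeR's quasi-likelihood test on the reads of all 9 libraries. With ASAH1 shRNA #2, 19 of the 41 genes were higher than with ASAH1 shRNA #1 and 10 lower, beside 31.4% and 32.6% of 14360 genes tested, of which 64.0% passed in either direction, and 12 did not pass. The libraries of the hairpins did not overlap for 30 of the 41, beside 67.6% of all genes. Of the called genes 9 passed 1.5-fold, beside 27.2% of all genes tested. The median log2 ratio was 0.18, beside -0.0055 over all genes. Of the Fanconi core complex and its E2 enzyme 7 of 9 were higher and 1 lower. All 6 genes called in opposite directions against the control differed here: CLSPN by 1.01 (SE 0.063, adjusted p = 1.39e-07), RAD54L by 0.97 (SE 0.063, adjusted p = 1.86e-07), FANCM by 0.89 (SE 0.070, adjusted p = 8.18e-07), TOPBP1 by 0.82 (SE 0.065, adjusted p = 8.8e-07), RAD54B by 0.52 (SE 0.053, adjusted p = 6.28e-06) and CHEK1 by 0.31 (SE 0.047, adjusted p = 0.000143). Each of these 6 kept this call in every alternative run. They were picked by opposite calls of the same hairpin libraries against the control. A difference between the hairpins was thus close to given by that choice and is no separate support.

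XRCC2 (0.92), FANCB (0.79), XRCC3 (0.76), TOP3A (0.46) and FANCA (0.43) were also higher with ASAH1 shRNA #2. RAD52 (-0.62), PALB2 (-0.61), ATRIP (-0.57) and FANCE (-0.33) had the lowest log2 ratios. Of the MRN genes, MRE11 (-0.27) and NBN (-0.31) were lower, and RAD50 was at 0.080 (95% interval -0.094 to 0.25), not passing. Scaled by total reads, 12 of the 41 genes were higher and 10 lower, and the median over all genes was -0.14. Under that scaling WRN (0.12), FANCF (0.21), FANCG (0.17), UBE2T (0.015), FANCI (0.041), CHEK2 (0.12) and POLQ (0.16) no longer passed (adjusted p of 0.0598 to 0.827). CHEK1 (0.17) and FANCC (0.18) still passed at smaller ratios, and BRCA1, MRE11, RAD51C, RAD51AP1 and RMI2 at ratios further from 0 (-0.40 to -0.31). Single libraries carried 8 of the 29 calls: without 1 library BRCA1, RAD51C, RAD51AP1, WRN, RMI2, FANCF, UBE2T or CHEK2 no longer passed. The libraries were ASAH1 shRNA #1 replicates 1 and 2 and ASAH1 shRNA #2 replicate 1 for BRCA1 (-0.19 to -0.18), ASAH1 shRNA #1 replicate 1 and ASAH1 shRNA #2 replicates 1 and 2 for RAD51C (-0.23 to -0.20), and ASAH1 shRNA #1 replicates 1 and 2 and ASAH1 shRNA #2 replicate 3 for RAD51AP1 (-0.18 to -0.14). For WRN they were ASAH1 shRNA #1 replicates 1 and 3 and ASAH1 shRNA #2 replicate 1 (0.22 to 0.23), for RMI2 replicate 1 of either hairpin (-0.18), and for FANCF ASAH1 shRNA #1 replicates 1 and 2 and ASAH1 shRNA #2 replicate 3 (0.28 to 0.31). UBE2T lost its call without any of 5 libraries, all hairpin libraries but ASAH1 shRNA #2 replicate 1 (0.11 to 0.16), and CHEK2 without 6, all 3 of ASAH1 shRNA #2, ASAH1 shRNA #1 replicates 1 and 2 and NS shRNA replicate 1 (0.17 to 0.29), while without ASAH1 shRNA #1 replicate 3 it was at 0.39 (adjusted p = 0.00303).

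**Figure D4:**
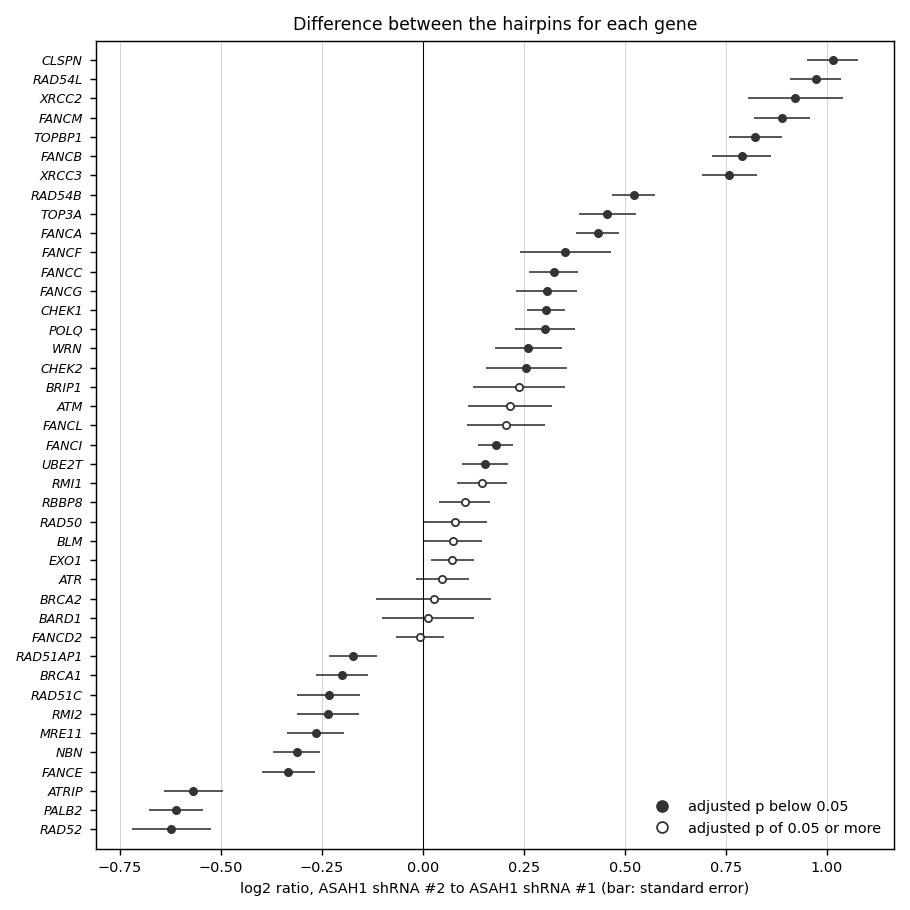
Log2 ratio of ASAH1 shRNA #2 to ASAH1 shRNA #1 for each of the 41 genes, ordered by value. Bars are standard errors worked out from edgeR's test statistic (3 libraries a group, spread from all 9). Open points did not pass an adjusted p of 0.05. CLSPN (1.01), RAD54L (0.97), XRCC2 (0.92) and FANCM (0.89) lie at the top, and RAD52 (-0.62) and PALB2 (-0.61) at the bottom.

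Other genes of the same pathways were read from a list of 58, of which 55 were tested. Of these, 19 were higher and 16 lower with ASAH1 shRNA #1 (median log2 fold change 0.058) and 15 higher and 14 lower with ASAH1 shRNA #2 (median 0.0091). Beside the counts of this paragraph, 32.8% of all genes tested were higher and 33.3% lower with ASAH1 shRNA #1. With ASAH1 shRNA #2 these shares were 33.5% and 33.4%. DNA2, the nuclease-helicase that shares long-range resection with EXO1, fell by 0.75 and 0.59. TIMELESS, of the fork protection complex that works with Claspin, fell by 0.71 and 0.75. USP1, the enzyme that removes ubiquitin from FANCD2, rose by 0.19 and 1.08. In nonhomologous end joining, the competing route of break repair, 5 of 14 genes tested were higher and 1 lower with ASAH1 shRNA #1 (median 0.12), and 8 were higher and 2 lower with ASAH1 shRNA #2 (median 0.24). LIG4, its ligase, rose by 0.78 and 0.97, PRKDC, the DNA-dependent kinase, by 0.31 and 0.65, and NHEJ1 (XLF) by 0.25 and 0.41. Members of this list also fell, named here after their values were seen: with ASAH1 shRNA #2 the polymerase POLL was at -1.01 (adjusted p = 2.2e-06), its largest change, and SHLD2, of the shieldin complex, at -0.42, and with ASAH1 shRNA #1 XRCC4, the partner of LIG4, was at -0.20, where it rose by 0.29 with ASAH1 shRNA #2. Of the S phase and G2/M list, MCM5, a subunit of the replicative helicase, fell by 1.20 and 0.83, CCNB2, a mitotic cyclin, by 0.63 and 0.91, and PLK1, a mitotic kinase, by 0.48 and 1.05. Others of this list rose, named here after their values were seen: CDC20 by 0.31 and 0.49, and CDC6 by 0.13 and 0.90. MCM3, of the same helicase as MCM5, was at -0.33 and 0.70. MCM2, MCM4 and MCM7 were called lower with ASAH1 shRNA #1 alone. The difference between these lists and the 41 genes was not tested.

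**Figure D5:**
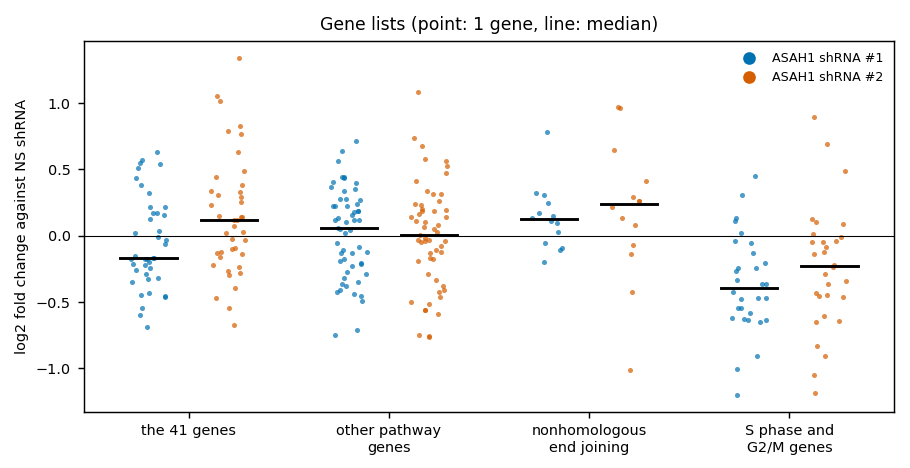
Log2 fold change against NS shRNA with ASAH1 shRNA #1 (blue) and ASAH1 shRNA #2 (orange) for the 41 genes, the other pathway genes, nonhomologous end joining and S phase and G2/M genes; each point is a gene (spread sideways for view) and the line is the median. The medians of the 41 genes are -0.17 and 0.12, and those of the S phase and G2/M genes -0.40 and -0.23.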

How the data were processed

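MDA-MB-231 RNA was sequenced in 9 libraries. According to the methods, reads were trimmed with Trimmomatic 0.36, aligned to hg38 with STAR 2.7.1a, counted on UCSC genes with htseq-count on the reverse strand and normalized with DESeq2 1.28, separately for each hairpin with the NS shRNA libraries; another methods paragraph names other tools. The design text describes ribosomal RNA depletion and the protocol oligo-dT purification. The deposited signal is a normalized count, which the authors made by dividing each gene's read count by the library's size factor. Their fold changes and p-values were not used. In the deposited files, 28 gene symbols had been turned into dates, none of them a gene reported here.

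Whole reads were recovered from the normalized counts (all values within 0.01 of a whole number after rescaling), and 1 set of size factors put all 9 libraries on a common scale for display. Each hairpin was compared with NS shRNA by limma 3.58.1 (R 4.3.3) with an intensity trend on log2(value + 1), keeping genes whose mean over the 6 libraries was 10 or more, two-sided, with Benjamini-Hochberg adjustment over all genes. Such a scale understates changes of low genes. The hairpins were compared by the quasi-likelihood test of edgeR 4.0.16 with TMM on the recovered reads. That test gives no standard error. The one printed is the absolute log2 ratio over the square root of its F statistic, and the intervals between hairpins follow from it. The tests were checked on simulated data, in which far fewer genes changed than were called here and every gene had the same setting of spread. The check does not cover data where most genes are called. Loci and lengths came from GENCODE (hg38) and promoters from RefSeq. With 3 libraries against 3 an exact permutation test cannot go below p = 0.10, so only models across all genes were used. The 41 genes and the other lists were chosen with earlier results of these data known. Values in every library were given for up to 3 genes a role called with both hairpins and largest in mean change, for genes called in opposite directions, and for BRCA1, BRCA2, ATM and ATR. Other lists name up to 3 genes by the same measure, and further genes of these lists are marked as named after their values were seen. Alternatives were other pseudocounts, filters, scalings and tests, a replicate block and leaving out each library; total read scaling was added after seeing the data.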

Additional observations from a re-analysis of the deposited data

Results flagged for a closer look

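Of the 41 genes, 29 differed between the hairpins in edgeR's quasi-likelihood test (adjusted p below 0.05) and are given here for that reason, where 64.0% of all genes tested differed; the log2 ratios are of ASAH1 shRNA #2 to ASAH1 shRNA #1, and what lies behind the differences was not tested. In strand exchange the ratios were 0.92 for XRCC2, 0.76 for XRCC3, 0.97 for RAD54L and 0.52 for RAD54B, and -0.62 for RAD52, -0.23 for RAD51C and -0.17 for RAD51AP1. Among Fanconi genes they were 0.89 for FANCM, 0.79 for FANCB, 0.43 for FANCA, 0.35 for FANCF, 0.32 for FANCC, 0.31 for FANCG, 0.15 for UBE2T and 0.18 for FANCI, and -0.33 for FANCE. Checkpoint genes stood at 1.01 for CLSPN, 0.82 for TOPBP1, 0.31 for CHEK1 and 0.26 for CHEK2, and at -0.57 for ATRIP. In the remaining roles the ratios were 0.46 for TOP3A, 0.26 for WRN, 0.30 for POLQ, -0.23 for RMI2, -0.20 for BRCA1, -0.61 for PALB2, -0.27 for MRE11 and -0.31 for NBN. Scaled by total reads, WRN, FANCF, FANCG, UBE2T, FANCI, CHEK2 and POLQ did not pass. Both hairpins lowered ASAH1, and the second lowered it further (log2 ratio -0.89), so the depth of knockdown and the identity of the hairpin cannot be told apart.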

How the results depend on the processing

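Calls and directions held under every alternative for 20 of the 30 genes called with ASAH1 shRNA #1, 17 of the 24 called with ASAH1 shRNA #2 and 18 of the 29 that differed between hairpins, and ASAH1 kept its call in each. Total read scaling, chosen after seeing the data, gave 14 lower genes with ASAH1 shRNA #2 (main 8) with a median of -0.015, and between the hairpins 12 higher genes (main 19) with a median of 0.041; of calls over all genes it put 38.1% and 33.5% on the higher side, where size factors put 50.1% and 49.1%. Upper quartile rescaling gave a median of 0.074 with ASAH1 shRNA #2. The replicate block gave 11 lower genes with ASAH1 shRNA #1 (main 19), 14 higher and 7 lower with ASAH1 shRNA #2, and 18 higher and 9 lower between the hairpins. Deviations of same-numbered libraries correlated at -0.30 to -0.088 between NS shRNA and the hairpins and at 0.053 to 0.20 between the hairpins. Not every pair passed 0.1 in any comparison, so the numbers were not taken as pairs, although between the hairpins each library correlated best with its own number, a hint from the data and not from the design. Under the block the calls of NBN, EXO1, RAD54B, BLM, RMI1, FANCL, FANCI, ATR, CLSPN and CHEK1 with ASAH1 shRNA #1, of RAD51C, ATR and CHEK1 with ASAH1 shRNA #2 and of RAD51AP1 and UBE2T between the hairpins ended. With no trend those of NBN, RMI1, FANCL, ATR and CLSPN with ASAH1 shRNA #1 and of BRIP1, RAD51C and CHEK1 with ASAH1 shRNA #2 ended (adjusted p of 0.0601 to 0.0852). RAD54B with ASAH1 shRNA #1 and CHEK1 with ASAH1 shRNA #2 also ended with DESeq2, no filter or upper quartile rescaling, RAD54B with a pseudocount of 5, RMI1 with no filter, and between the hairpins RAD51AP1 with no filter and CHEK2 with a mean of at least 50. With each library left out in turn, the medians ran from -0.17 to -0.13 with ASAH1 shRNA #1, 0.048 to 0.13 with ASAH1 shRNA #2 and 0.13 to 0.19 between the hairpins. Lower genes then numbered 14 to 18, 5 to 9 and 6 to 10, the 5 without NS shRNA replicate 2 and the 6 without ASAH1 shRNA #1 replicate 1. Genes lower with both hairpins numbered 3 to 6, the 3 without NS shRNA replicate 2.

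Directions that turned belonged to genes that had not passed. Total read scaling turned, between the hairpins, BARD1 (-0.13), BRCA2 (-0.11), RAD50 (-0.059), RBBP8 (-0.036), EXO1 (-0.066), BLM (-0.066) and ATR (-0.092); with ASAH1 shRNA #2, FANCA (-0.015), FANCF (-0.014), FANCD2 (-0.11), FANCI (-0.11) and CHEK2 (-0.063); and with ASAH1 shRNA #1, RAD51C (0.011). Upper quartile rescaling turned RAD51C with ASAH1 shRNA #1 (0.0031) and FANCD2 (-0.020) and FANCI (-0.022) with ASAH1 shRNA #2. Between the hairpins a mean of at least 50 turned BARD1 (-0.0013), and limma (0.0035) or no filter (0.0047) turned FANCD2. Leaving out 1 library turned BARD1 (-0.16 to 0.074 with ASAH1 shRNA #1, -0.098 to 0.060 with ASAH1 shRNA #2, -0.11 to 0.11 between hairpins), FANCD2 (-0.018 to 0.059, -0.013 to 0.055 and -0.046 to 0.032 likewise), BRCA2 between hairpins (-0.072 to 0.17), RAD51C (-0.074 to 0.036) and RAD51AP1 (-0.021 to 0.064) with ASAH1 shRNA #1 and FANCL with ASAH1 shRNA #2 (-0.070 to 0.029).

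All values were whole reads after rescaling (100% within 0.01), and edgeR on these reads called 9465 genes with ASAH1 shRNA #1, 11 higher and 19 lower of the 41, and 9547 with ASAH1 shRNA #2, 16 higher and 8 lower of the 41.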
